A study of Oryza sativa with 4 samples.

Results

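Strong OsBZIP42 sites that lacked both other rice bZIP proteins of the study are described here. They were selected on measured values, the authors' signal per peak and the positions of the peaks in the other lists: OsBZIP42 peaks with a signal of 100 or more and no peak centre of OsBZIP69 or OsBZIP77 within 100 bp on the same chromosome. Of 28323 OsBZIP42 peaks, 1618 reached that signal, and 772 of these had neither other protein, or 47.7% of the strong peaks (95% interval 45.3 to 50.2). They are called lone peaks below. The other 846 strong peaks, which had a centre of OsBZIP69, OsBZIP77 or both within 100 bp, are called accompanied peaks and serve as the comparison.

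The study used DAP-seq (DNA affinity purification sequencing), in which a tagged transcription factor made in vitro is mixed with fragmented genomic DNA and the DNA it retains is sequenced. The HALO-bZIP fusions came from rabbit reticulocyte extract. Naked leaf DNA of the rice strain nipponbare was offered to HALO-tagged OsBZIP42 (labelled HBF1), OsBZIP69 (labelled FD4) and OsBZIP77 (labelled FD1), and to HALO-GST, the negative control, in which the HALO tag is joined to glutathione S-transferase. Each of the 4 libraries was made once. The OsBZIP69 list held 1107 peaks and the OsBZIP77 list 2059, many fewer than the OsBZIP42 list, which limits how many OsBZIP42 peaks could be accompanied. The assay is free of chromatin and of other plant proteins, so it reads what each protein bound alone on purified DNA and not occupancy in a plant.

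bZIP proteins grip DNA as dimers. A basic region contacts the bases, and the leucine zipper that follows holds the dimer together; plant bZIPs typically recognise short elements around an ACGT core. FD and its relatives are known as the DNA-binding part of the florigen activation complex, in which the mobile protein florigen is bridged to a bZIP by a 14-3-3 protein. In rice, FD1 and FD4 act in that complex to promote flowering, and HBF1 is known as a partner of florigen that represses flowering. No genome or annotation of the build behind these coordinates was used here, so sites are given by position and not by gene, and no sequence is shown.

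The rule used OsBZIP42 signal and the presence of the other peaks, so the first values are a description of the choice and were not tested. The unit of the signal was not given in the sources used here. With 1 library per protein no difference below could be tested over replicates. The intervals are exact (Clopper-Pearson) for shares and binomial for medians, and cover the counting of peaks only. Peaks of 1 library are not replicates.

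Lone peaks were common over the whole list and became scarcer with signal. Among all OsBZIP42 peaks, 91.2% had neither other protein, a share that the many weak peaks fix. It was 98.6% for signals from 9 to under 25 and 64.9% for signals from 80 to under 100. Above the limit it was 58.5% (54.5 to 62.3) of the 633 peaks with a signal from 100 to 124.9, the lowest of 5 classes, and 52.0% (46.4 to 57.6) of the 321 peaks of the second class, up to 149.9. It was 41.6% (36.4 to 46.9) of 356 peaks from 150 to under 200, 33.8% (27.7 to 40.3) of 228 peaks from 200 to under 300, and 12.5% (6.16 to 21.8) of 80 peaks at 300 or more. The 10 lone peaks in that last class were the only ones above 300, against 70 accompanied peaks.

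The 2 groups overlapped widely in strength. Lone peaks had a lowest signal of 100, a median of 127 (124 to 130) and a highest of 369, while accompanied peaks had a lowest of 100, a median of 150.4 (146 to 156) and a highest of 736. The middle 50% of the peaks spanned 111 to 159 in the lone group and 118 to 203 in the accompanied group. Of the 50 strongest OsBZIP42 peaks 6 were lone, as were 11 of the 100 strongest and 163 of the 500 strongest.

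**Figure D1:**
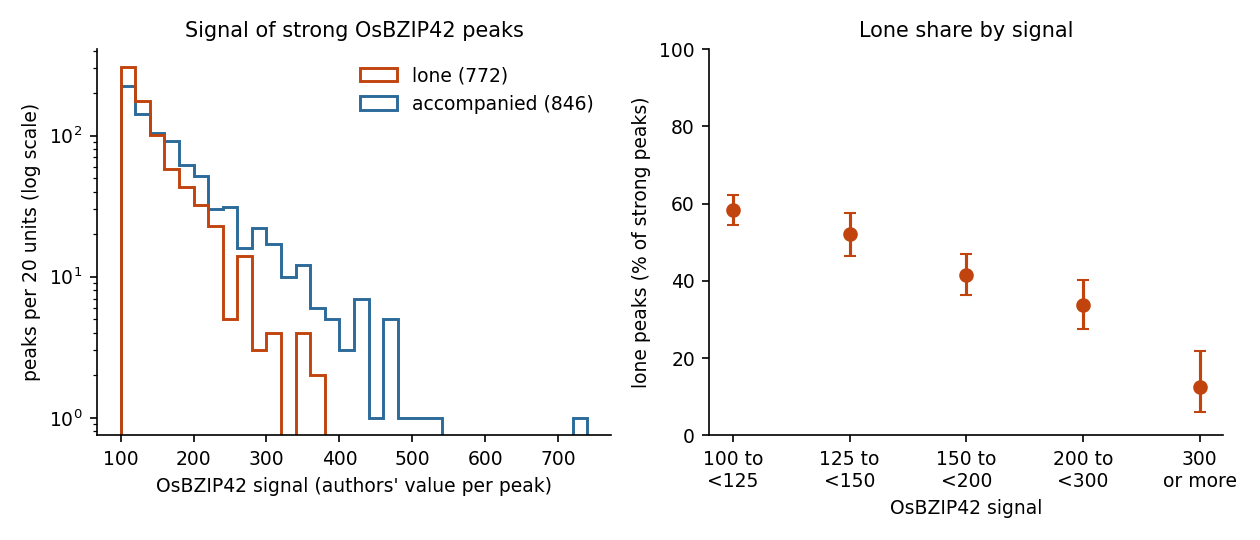
Left, number of strong OsBZIP42 peaks per 20 units of signal (log scale) for 772 lone and 846 accompanied peaks. Right, lone peaks as a percentage of strong peaks in 5 classes of signal, with exact 95% intervals; the share is 58.5% in the lowest class and 12.5% in the highest.

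The strongest lone peak was at chr4:6925865-6926065, with a signal of 369, rank 31 in the OsBZIP42 list. The nearest OsBZIP69 centre was 81347 bp away and the nearest OsBZIP77 centre 454026 bp. A weak OsBZIP42 peak with a signal of 11 stood 702 bp from it. The next was at chr12:24239824-24240024, with a signal of 363, and the third at chr1:3373993-3374193, with a signal of 354. The nearest peak of either other protein was 48622 bp from the site on chromosome 12 and 118266 bp from the one on chromosome 1. These leading sites were therefore well beyond the 100 bp limit.

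The rest of the 15 strongest lone peaks had signals between 278 and 347 and lay on chromosomes 1, 2, 3, 4, 5, 7, 10 and 12. Chromosome 4 held 4 of the 15. Besides the leading site these were chr4:31962334-31962534 (signal 345), chr4:30701636-30701836 (signal 305) and chr4:26661412-26661612 (signal 279.9). Chromosome 5 held 3, chr5:25640357-25640557 (signal 314), chr5:26292152-26292352 (signal 305) and chr5:17665237-17665437 (signal 285). OsBZIP77 came nearest at the site at chr10:22146725-22146925, whose signal was 346.5, and even there its closest centre was 4469 bp away. The site at chr5:25640357-25640557 had an OsBZIP77 centre 4491 bp away and another lone peak, with a signal of 127, at a distance of 598 bp. The 5 strongest accompanied peaks had OsBZIP42 signals of 478 to 736, and both other proteins had a centre within 21 bp of each. The rule itself places a centre within 100 bp of every accompanied peak, so the difference in distance follows from it. Both proteins were present at 485 of the 846 accompanied peaks.

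Every chromosome had a lone peak well above the limit. The strongest lone peak of a chromosome had a signal between 224.5, at chr6:8384287-8384487, and the 369 on chromosome 4. On chromosome 8 it had a signal of 259 (chr8:18161618-18161818), on chromosome 11 one of 267 (chr11:15337313-15337513) and on chromosome 9 one of 277 (chr9:14566351-14566551).

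At the limits of the rule, members and non-members were close in value. Several lone peaks tied at the lowest signal of 100. Among them were 3 on chromosomes 10, 3 and 6, with −log10 q of 20.37, 19.57 and 18.09. The 3 strongest peaks with neither other protein below the limit, which are on chromosomes 4 and 2, had signals of 99.9, 99.7 and 99.7. In distance, the lone peak nearest to another protein was 104 bp from it, at chr4:19202987-19203187 with a signal of 181, followed by a pair at 106 bp. The accompanied peaks farthest from another protein were 94, 93 and 92 bp from it. In all, 15 lone peaks had another protein beyond 100 bp and up to 200 bp, and 13 of these 15 also had an OsBZIP42 peak within 200 bp that was itself close to the other protein. At chr10:16016521-16016721, with a signal of 251, a weak OsBZIP77 peak (signal 10.4) stood 106 bp away while the nearest other OsBZIP42 centre was 21543 bp away.

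The median distance from lone peaks to the other proteins was close to that of the whole OsBZIP42 list, though the sets are not alike. The rule left peaks within 100 bp of another protein out of the lone group. The whole list holds them, which lowers its distances, and 91.2% of its peaks had neither other protein that close. The median distance to the nearest OsBZIP69 or OsBZIP77 centre was 44636.5 bp (38178 to 49149) for lone peaks and 43220 bp for all OsBZIP42 peaks. Of the 772 lone peaks 187, or 24.2% (21.2 to 27.4), had none within 100000 bp, against 25.4% of all OsBZIP42 peaks. Of the lone peaks 37, or 4.79% (3.40 to 6.55), had one beyond 100 bp and up to 1000 bp, against 2.72% (2.54 to 2.92) of all OsBZIP42 peaks. A further centre at that distance stood by 41 accompanied peaks, or 4.85% (3.50 to 6.52). Within 50 kb, leaving out the first 100 bp, 54.5% (50.9 to 58.1) of lone and 57.3% (53.9 to 60.7) of accompanied peaks had such a centre, against 50.6% of all OsBZIP42 peaks. The intervals of lone and accompanied peaks overlapped at both distances. Up to 1000 bp, both lay above the interval of all OsBZIP42 peaks.

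Where the other proteins were called, their own signals ranged widely. OsBZIP77 was present at 786 of them, with OsBZIP69 at 485 and alone at 301, and OsBZIP69 alone was present at 60. In the lowest class of OsBZIP42 signal, the OsBZIP69 signal at 155 accompanied peaks ran from 10 through a median of 31.0 to 195, and the OsBZIP77 signal at 244 peaks ran from 11.0 through a median of 26.0 to 99. The weakest peaks listed at all had signals of 9.2 for OsBZIP69 and 9.5 for OsBZIP77. Between OsBZIP42 signals of 200 and under 300 the medians were 34.0 for OsBZIP69 and 27.8 for OsBZIP77, and at 300 or more they were 58 for OsBZIP69 and 33.0 for OsBZIP77. Because the scale was not matched between libraries and read depth is unknown, a lone peak is one at which the other proteins were not called. Binding below what those libraries could detect cannot be told apart from no binding.

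Lone peaks were called with less significance than accompanied peaks of the same signal. This measure, −log10 q divided by signal, was added after seeing the data. The rule did not use q, but it used signal, the divisor, and the calls of the other proteins. The bZIP lists were each called against a negative control, per the names of the deposited files. The ratio and the calls of the other proteins therefore need not be independent, and this was not tested. Over all strong peaks its median was 0.255 (0.252 to 0.256) in lone and 0.268 (0.266 to 0.270) in accompanied peaks. Since the ratio itself rises with signal, classes of equal signal are the fairer comparison. In the lowest class, where the median signal was 110 in lone and 111 in accompanied peaks, the ratio was 0.244 (0.238 to 0.255) in lone and 0.258 (0.258 to 0.259) in accompanied peaks. In the second class it was 0.251 (0.245 to 0.260) in lone and 0.264 (0.262 to 0.265) in accompanied peaks. The lone median was the lower in all 5 classes of signal. In the highest class, with 10 lone peaks, the intervals overlapped, at 0.267 (0.260 to 0.279) in lone and 0.281 (0.279 to 0.284) in accompanied peaks. From 200 to under 300 the median signals differed, at 224.2 in lone and 236.6 in accompanied peaks. The lone median was also the lower on all 12 chromosomes, which were not matched on signal. It ran there from 0.244 to 0.259 in lone and from 0.264 to 0.276 in accompanied peaks.

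The ratios lay on a series of separate lines, so that peaks of 1 signal took only a few q-values. At a signal of exactly 110, the highest −log10 q of 31.38 was held by 1 lone and 6 accompanied peaks. The lowest, 24.87, was held by 4 lone and 0 accompanied peaks. At a signal of exactly 120 the contrast at the top was absent, as the highest, 34.31, was held by 1 lone and 1 accompanied peak. The next, 31.12, was held by 5 lone and 3 accompanied peaks, and the lowest, 25.69, by 3 lone and 0 accompanied peaks. A limit of 0.28 was chosen after seeing the data. It is flat while the ratio rises with signal, so it need not follow the uppermost line over all signals. At or above it lay 11.0% (8.89 to 13.4) of lone and 32.7% (29.6 to 36.0) of accompanied peaks, against 4.82% of all OsBZIP42 peaks, most of them weaker. In the lowest class of signal these were 12.2% (9.01 to 15.9) of lone and 29.7% (24.2 to 35.6) of accompanied peaks. At 300 or more they were 10% of 10 lone and 52.9% (40.6 to 64.9) of 70 accompanied peaks. Among peaks with no other OsBZIP42 centre within 1000 bp, these were 11.9% (8.98 to 15.3) of 429 lone and 31.2% (26.7 to 36.0) of 397 accompanied peaks. Accompanied peaks with both other proteins reached 38.1% (33.8 to 42.6), those with OsBZIP77 alone 25.9% (21.1 to 31.3), and those with OsBZIP69 alone 23.3% (13.4 to 36.0). Their median signals were 161, 137 and 146.1 in the same order, and these shares were not matched on signal.

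**Figure D2:**
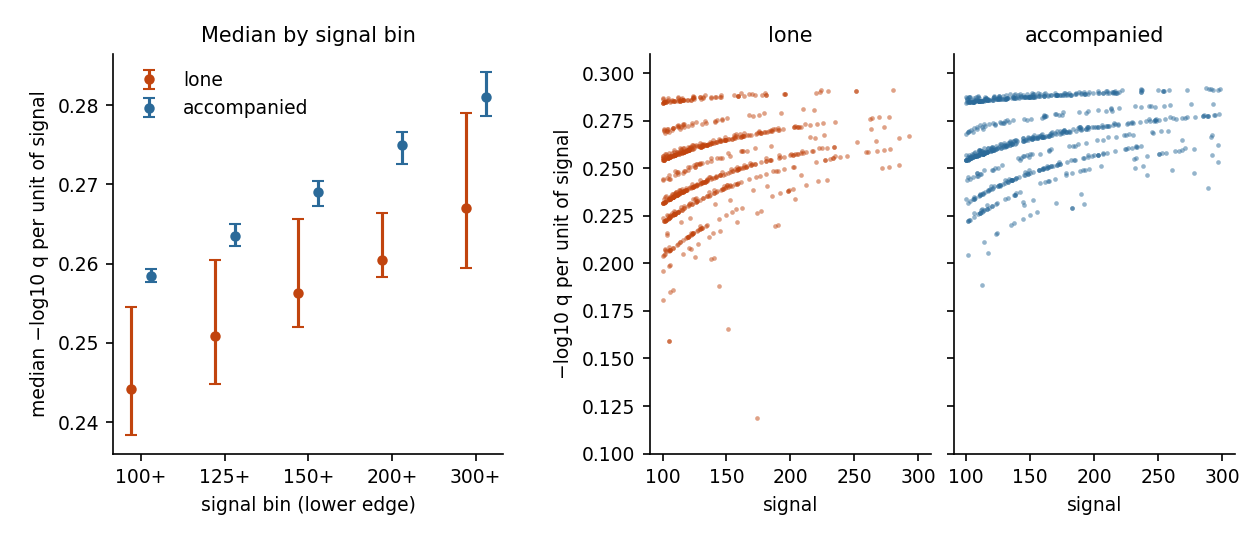
Left, median −log10 q per unit of OsBZIP42 signal in 5 classes of signal, given by their lower edge, for lone and accompanied peaks with binomial 95% intervals. Middle and right, the same ratio for each lone and each accompanied peak with a signal under 300; the points lie on separate lines, and the uppermost line holds a smaller part of the lone peaks.

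Among strong peaks, those with the lowest ratios were mostly lone. Of the 71 strong peaks with a ratio under 0.22, 65 were lone and 6 accompanied, and of the 12 under 0.2, 11 were lone and 1 accompanied. Of all strong peaks, 47.7% were lone. These counts were not matched on signal, with which the ratio rises, and the lowest class of signal held 370 lone and 263 accompanied peaks. Ratios under 0.22 were usual in the list as a whole, where 60.6% of all OsBZIP42 peaks, most of them weaker, had one and the median ratio was 0.204. The lowest ratio, 0.118, belonged to the lone peak at chr12:20632806-20633006, with a signal of 174 and a −log10 q of 20.61. A pair of lone peaks on chromosome 9, chr9:4727009-4727209 and chr9:8275274-8275474, shared a signal of 105 and a −log10 q of 16.73. Of the 11 lone peaks under 0.2, 8 had no HALO-GST centre within 100000 bp. The other 3 had one at 10847, 20950 and 27847 bp, and the first of these was the peak with the lowest ratio. The median distance to the nearest one over all 11 was 838589 bp. Over all 772 lone peaks the median was 649674 bp and the lower quartile 253320 bp. Whether nearness to a control peak bears on the ratio was not tested. These sites were named after their values were seen. The q-values were called against a negative control, per the names of the deposited files, and how many control reads lay at each site was not analysed here.

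The control list held only 194 peaks, and few strong OsBZIP42 peaks of either group lay near one. No lone peak had a HALO-GST centre within 1000 bp (0 of 772, a count at which the share may still reach 0.389%, by 3 counts of the total), 1 of 846 accompanied peaks did, and 0.138% of all OsBZIP42 peaks did. Within 10000 bp there were 7 lone peaks, or 0.907% (0.365 to 1.86), and 10 accompanied peaks, or 1.18% (0.568 to 2.16). The median distance to the nearest HALO-GST centre was 649674 bp for lone and 675642 bp for accompanied peaks.

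Close OsBZIP42 neighbours were less frequent at lone peaks when every peak near another protein was counted, but not when each peak of the other lists was given to its nearest OsBZIP42 peak alone. Of the lone peaks 169, or 21.9% (19.0 to 25), had another OsBZIP42 centre within 200 bp, against 293 accompanied peaks, or 34.6% (31.4 to 37.9), and 13.0% of all OsBZIP42 peaks. Lone peaks had the lower share in each class of signal, at 20.5% of lone against 30.8% of accompanied peaks in the lowest class and at 23.4% of lone against 41.1% of accompanied peaks from 200 to under 300. It was also lower on 11 of 12 chromosomes, the exception being chromosome 4, with 29.0% of lone and 22.8% of accompanied peaks. Within 1000 bp the shares were 44.4% (40.9 to 48.0) in lone and 53.1% (49.6 to 56.5) in accompanied peaks.

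That difference changed with how shared neighbours were counted. A single OsBZIP69 or OsBZIP77 centre within 100 bp of both members of a close pair marks both as accompanied. Given to the nearest OsBZIP42 peak only, the other lists left 847 lone and 771 accompanied peaks, 75 of the accompanied peaks having become lone. This count by construction moves the farther member of a close pair into the lone group, just as the first count keeps both members in the accompanied group. The shares with a neighbour within 200 bp were then 28.8% (25.8 to 32.0) in lone and 28.3% (25.1 to 31.6) in accompanied peaks. With OsBZIP42 centres up to 200 bp apart merged into sites, a comparison in which a site with more centres has more chances of being accompanied, 19.1% (16.3 to 22.1) of 745 lone sites and 30.9% (27.7 to 34.2) of 800 accompanied sites held at least 2 centres.

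**Figure D3:**
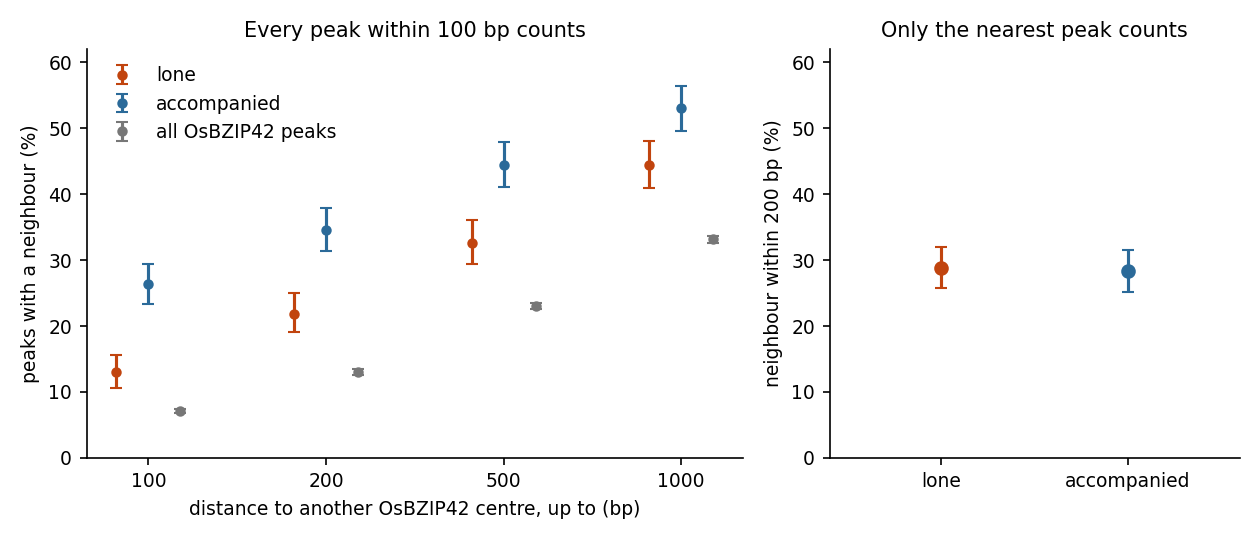
Left, percentage of lone, accompanied and all OsBZIP42 peaks with another OsBZIP42 centre within 100, 200, 500 and 1000 bp, with exact 95% intervals; lone peaks lie between the other groups at each distance. Right, the share within 200 bp when a peak of another list marks its closest OsBZIP42 peak alone, 28.8% in lone and 28.3% in accompanied peaks.

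Where a lone peak did have a close neighbour, the neighbour was usually the weaker of the pair and free of the other proteins. It was weaker than the lone peak in 150 of 169 cases, or 88.8% (83.0 to 93.1), against 241 of 293, or 82.3% (77.4 to 86.5), for accompanied peaks. The signal limit of 100 by itself favours a weaker neighbour in both groups. The neighbour of a lone peak had a median signal of 45.5 (40.7 to 54.1). This was 77.4 (68.3 to 86.6) for the neighbours of accompanied peaks and 30.5 for those of all OsBZIP42 peaks with a close neighbour. The neighbour of a lone peak was itself strong in 33 of the 169 cases, or 19.5% (13.8 to 26.3). This was 36.9% (31.3 to 42.7) for accompanied peaks and 13.1% for all OsBZIP42 peaks with a close neighbour. Of the whole list, 5.71% of peaks were strong. The neighbour of a lone peak was itself near another protein in 13 of the 169 cases, or 7.69% (4.16 to 12.8). This was 231 of 293, or 78.8% (73.7 to 83.4), for accompanied peaks and 19.2% for all OsBZIP42 peaks with a close neighbour. The last contrast follows in part from the rule, since centres within 100 bp of each other can share 1 peak of another list. The median gap was 81 bp (70 to 95) for lone and 60 bp (54 to 70) for accompanied peaks.

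Some lone peaks came as pairs. There were 12 neighbouring pairs of lone centres within 100 bp and 13 within 200 bp. The closest pair had centres 13 bp apart at 29125273 and 29125286 on chromosome 7, with signals of 161.5 and 108.5. The next had centres 14 bp apart at 18133139 and 18133153 on chromosome 10, with signals of 126 and 153. The third had centres 25 bp apart at 3528399 and 3528424 on chromosome 12, with signals of 101.1 and 105.9. At chr1:1203545-1203745, a lone peak with a signal of 146.6 stood 21 bp from a weaker OsBZIP42 peak with a signal of 54.1. The intervals of such pairs overlap for most of their length, and a pair of sites was not told apart here from 1 enriched region that was called as a pair of peaks.

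Over longer distances the numbers of OsBZIP42 peaks around lone and accompanied peaks were close. Lone peaks had a median of 9 other OsBZIP42 centres within 50 kb, accompanied peaks had 10 and all OsBZIP42 peaks had 9. Within 500000 bp the medians were 87 (85 to 90) for lone and 88 (86 to 90) for accompanied peaks. Among strong peaks with 0 to 8 other OsBZIP42 centres within 50 kb, 51.1% (47.3 to 55.0) were lone, and among those with 12 to 26 it was 43.6% (39.3 to 48.0). The median signal was 131.9 in the sparser surroundings and 140.8 in the denser ones, and the part of signal in this difference was not tested. Along the chromosome, the next strong peak was lone after 48.9% (45.3 to 52.5) of lone and after 46.7% (43.3 to 50.2) of accompanied peaks.

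On every chromosome lone peaks made up a large part of the strong peaks. Their share was lowest on chromosome 6, at 41.0% (32.7 to 49.7; 57 lone and 82 accompanied peaks), and on chromosome 12, at 42% (33.0 to 51.4; 50 lone and 69 accompanied). It was highest on chromosome 4, at 54.8% (45.7 to 63.6; 69 lone and 57 accompanied), and on chromosome 3, at 53.7% (46.0 to 61.2; 95 lone and 82 accompanied). The intervals of all 12 chromosomes held the genome-wide share of 47.7%. Accompanied peaks outnumbered lone peaks on 9 chromosomes, the exceptions being chromosomes 1, 3 and 4. Lone peaks numbered 110 on chromosome 1. Lone peaks were least dense on chromosome 11, at 1.69 per Mb, and most dense on chromosome 3, at 2.61 per Mb. The density of accompanied peaks spanned 1.61 per Mb on chromosome 4 to 2.72 per Mb on chromosome 5.

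**Figure D4:**
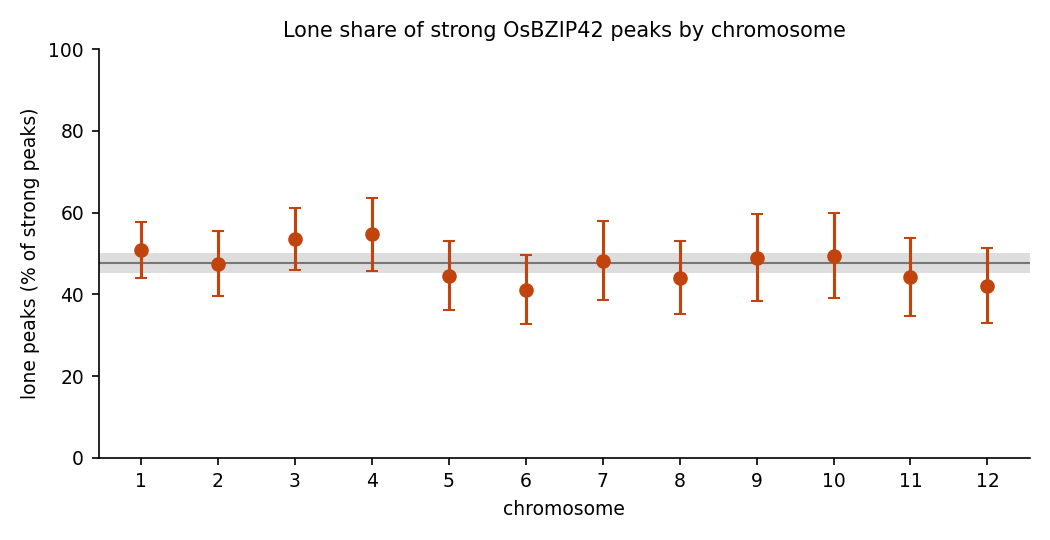
Lone peaks as a percentage of strong OsBZIP42 peaks on each of 12 chromosomes, with exact 95% intervals. The line and band give the genome-wide share of 47.7% and its interval; each chromosome's interval holds that share.

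Both groups were thinnest between 30% and 50% of the chromosome length and dense toward the far ends. Positions are percentages of the distance between coordinate 1 and the last peak of any list, with the 12 chromosomes put together. The part between 30% and 40% held 38 lone peaks, or 4.92% of the group, and 41 accompanied peaks, or 4.85%, against 7.02% of all OsBZIP42 peaks. The last 10% held 124 lone peaks, or 16.1%, and 131 accompanied peaks, or 15.5%, against 12.5% of all OsBZIP42 peaks. In the outer 10% at either end together lay 208 lone peaks, or 26.9% (23.8 to 30.2), and 224 accompanied peaks, or 26.5% (23.5 to 29.6), against 22.4% of all OsBZIP42 peaks. The groups were furthest apart between 10% and 20% of the length, where lone peaks were 39.5% (32.4 to 46.9) of 185 strong peaks, and between 40% and 50%, where they were 55.1% (43.4 to 66.4) of 78. Equal parts of chromosomes of different lengths do not align arms or centromeres, and on chromosome 9 the genes of another assembly run 4.55 Mb past the last peak, so the far end used here may not be that of the chromosome.

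**Figure D5:**
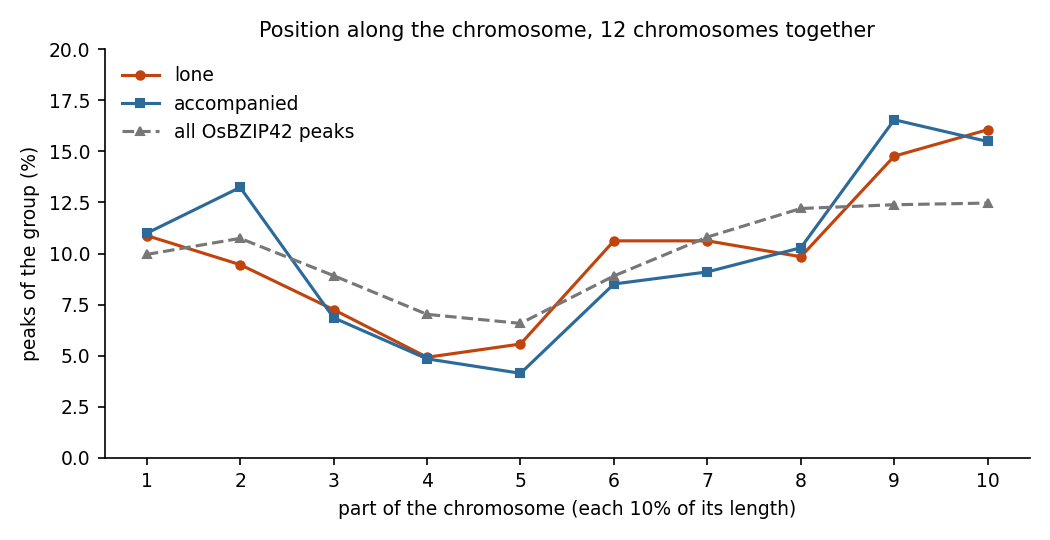
Percentage of lone, accompanied and all OsBZIP42 peaks in 10 equal parts of the chromosome length, over 12 chromosomes together. Both strong groups are lowest between 30% and 50% of the length and highest beyond 80%, and the lone curve stays close to the accompanied one.

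At the scale of 1 Mb, most intervals held both lone and accompanied peaks. Only 81 intervals lacked lone peaks and 67 lacked accompanied ones, so most would hold both under any arrangement. The overlap was not compared with an expected count. Of 366 whole 1 Mb intervals, 245 held both kinds, 40 held lone peaks without accompanied ones, 54 held accompanied peaks without lone ones and 27 held neither. The most lone peaks, 9, lay on chromosome 4 from 19 to 20 Mb, beside 5 accompanied peaks and 96 OsBZIP42 peaks in all. Chromosome 1 from 1 to 2 Mb held 8 lone and 5 accompanied peaks among 144, and chromosome 10 from 21 to 22 Mb held 8 lone and 6 accompanied peaks among 129. The longest stretch between neighbouring lone centres was 5.46 Mb, at chr7:5903481-11358836. The next were 4.21 Mb on chromosome 2 and 4.04 Mb on chromosome 11.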

How the data were processed

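Peak lists of 4 DAP-seq libraries (OsBZIP42, OsBZIP69, OsBZIP77 and HALO-GST, 1 each, groups taken from the sample titles) were analysed. The submitters' processing notes name Bowtie2 2.2.8, a read aligner. Peaks were called with GEM, the bZIP lists against a negative control and HALO-GST without one, per the names of the deposited files. A genome build was not given in the sources used here. Each deposited peak is 201 bp wide and carries the authors' signal, of unstated unit and scaling, and a deposited −log10 q-value of at least 2.00. Read depth is unknown.

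A centre was taken as the interval start plus the deposited offset, 1-based. Distances, shares and medians were computed with Python 3.11.15, pandas 2.3.3 and SciPy 1.17.1, and the code was tested on simulated lists. The gene table at hand is of another assembly (ASM3414082v1), whose genes run 4.55 Mb past the last peak on chromosome 9, so the planned lookups of genes and motifs were not run. The rule for named sites took the 15 strongest lone peaks, the strongest per chromosome, the peaks nearest each limit, the closest neighbours and pairs, and the 3 richest 1 Mb intervals. Members, lists and measures were chosen with earlier results of these data known.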

Additional observations from a re-analysis of the deposited data

How the results depend on the processing

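The 28 results gave 238 values under other settings (166 planned, 72 chosen after seeing the data); 164 stayed within the interval of the main value, or within 1.5 times the main count, and 74 moved. A signal limit of 80 gave 1310 lone peaks, 53.5% of strong peaks, with median signals of 106 in lone and 126 in accompanied peaks and −log10 q per unit of signal of 0.251 and 0.266. A limit of 150 gave 235 lone peaks, 35.4%, with median signals of 184 and 203, ratios of 0.259 and 0.273, 31.5% of lone peaks in the outer parts, lowest and highest chromosomes at 22.4% and 45.1%, and 0 accompanied peaks near HALO-GST. A window of 50 bp made 50.3% lone. Keeping the upper 50% of the OsBZIP69 and OsBZIP77 lists by q made 64.0% lone, and 73.1%, 72.6%, 56.2%, 50.9% and 28.75% from the lowest to the highest class of signal; the chromosomes then ran from 55.5% to 69.5%, the accompanied median signal was 158, and the ratios were 0.256 in lone and 0.272 in accompanied peaks. Counting the nearest OsBZIP42 peak only made 52.3% lone, and 62.7% and 40.4% in the classes from 100 and from 200, with close neighbours at 28.8% of lone and 28.3% of accompanied peaks. A neighbour distance of 100, 500 or 1000 bp gave 13.0%, 32.6% and 44.4% of lone against 26.4%, 44.4% and 53.1% of accompanied peaks. Windows of 10 and 500 kb held medians of 2 and 87 OsBZIP42 centres around lone and 2 and 88 around accompanied peaks; merging close peaks gave 8 around lone sites within 50 kb. Outer parts of 5% and 20% held 12.3% and 51.2% of lone against 11.8% and 56.3% of accompanied peaks. HALO-GST lay within 10000 bp of 0.907% of lone and 1.18% of accompanied peaks, and within 100 bp of 0. Lone peaks with another protein beyond the window and within 1000 bp were 9.71%, 2.91% and 1.74% for windows of 50, 200 and 500 bp and 3.22% for merged sites. Without peaks that have an OsBZIP42 centre within 1000 bp the ratios were 0.250 in lone and 0.263 in accompanied peaks.

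Lone peaks had the lower median signal in 8 of 8 alternatives and the lower −log10 q per unit of signal in 9 of 9. The lower share of close neighbours held in 9 of 10 and turned round when the nearest peak only was counted, by 28.8% against 28.3%. The order of the groups in the outer parts of the chromosomes differed from the main one in 6 of 10 alternatives. Merging left no share of close neighbours to give. No paired analysis was possible because the design holds only 1 library of each kind, and no replicate could be left out. Unknown depth limits any statement on proteins not called at a site.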

Other observations

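Signals that were not whole numbers marked crowded peaks in both groups. They made up 38.1% (34.6 to 41.6) of lone and 45.3% (41.9 to 48.7) of accompanied peaks, against 36.5% of all OsBZIP42 peaks. Among peaks with another OsBZIP42 centre within 200 bp the shares were 91.1% (85.8 to 94.9) of lone and 88.1% (83.8 to 91.5) of accompanied peaks. Among peaks with none within 1000 bp they were 15.6% (12.3 to 19.4) of lone and 15.9% (12.4 to 19.8) of accompanied peaks.

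By size of group, with OsBZIP42 centres up to 200 bp apart put together, 52.2% (49.2 to 55.1) of 1156 strong peaks that stood by themselves were lone, as were 36.7% (32.0 to 41.5) of 420 in groups of 2 and 38.9% (23.1 to 56.5) of 36 in groups of 3. Of the 169 lone peaks in groups, 156 were in groups with no peak of another protein at any centre. For comparison, 91.2% of all OsBZIP42 peaks had neither other protein within 100 bp. The count of 156 also follows in part from the rule, since centres within 100 bp of each other can share a peak of another list. Groups with at least 2 lone peaks numbered 14. Gaps of up to 60 bp made up 37.9% (30.5 to 45.6) of the close neighbours of lone peaks and 50.9% (45.0 to 56.7) of those of accompanied peaks.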
